A study of Danio rerio with 10 samples.

Results

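The genes described here are the cytosolic ribosomal protein genes of the zebrafish. They were taken from the 25107 genes of the count tables by symbol: rps or rpl followed by a number, together with rpsa, rplp0, rplp1 and rplp2, and leaving out the kinases whose symbols begin with rps6k. The rule found 82 genes, of which 35 carried symbols of the small subunit and 47 symbols of the large subunit. It used no measured value. Of the 82 symbols, rps19bp1 and rpl7l1 fit the rule although their human counterparts are not subunits of the ribosome, the first binding RPS19 and the second acting in ribosome assembly. The symbol rpl37 stood on 2 rows (ENSDARG00000034291 and ENSDARG00000076360), and the reference table of gene names gives the second ID as COA1. The second row is therefore named apart below, but it remains among the 82 genes and in their sums. Rows whose symbols are in capitals (such as RPL37A) or lack a number at that place (such as rplp2l and faua) fell outside the rule.

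A ribosome is built from ribosomal RNA and a set of proteins, most of them present once in each ribosome. The small subunit reads the mRNA and the large subunit joins the amino acids. In vertebrates the mRNAs of these proteins begin with a run of pyrimidines, the TOP motif, through which growth signals acting on mTOR set how much of them is translated, and these mRNAs are among the most abundant of any dividing cell. Human mutations in single members, RPS19 among them, cause Diamond-Blackfan anaemia, and in mouse and zebrafish the loss of one member can affect blood or body patterning while other tissues are spared.

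The samples were single whole embryos of the Tubingen strain, which the labels place at the 3 somite stage, each dissociated into cells and sequenced as its own 10x library of 3′ transcript ends. There were 3 compound mutants homozygous for deletions in both dact1 and dact2 (dact1-/-;dact2-/-, called dact1/2 mutants), 3 embryos homozygous for an insertion in gpc4 (gpc4-/-) and 4 wildtype embryos. Dact1 and Dact2 are adapters that bind Dishevelled in Wnt signaling, and gpc4 encodes a cell surface glypican of the noncanonical Wnt pathway. Per the study's methods, mutants were picked by their shortened axis and were not genotyped, and the gpc4 mutants served as a second line with a short axis, so that differences shared by both mutants can be set apart from those of 1 genotype. The alleles are germline alleles, and no embryo was pooled with another.

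After quality control 16449 cells remained of 21980 droplets, with between 10168109 and 18839132 molecules (UMIs, transcripts counted once each) per embryo. The labels were checked by the targeted genes. Transcripts of dact1 were at 2.97, 2.60 and 2.98 CPM (counts scaled to 1000000 UMIs an embryo) in dact1/2 mutants, against 6.57, 5.72 and 6.79 CPM in gpc4 mutants and between 6.46 and 7.99 CPM in wildtype. Transcripts of gpc4 were at 17.7, 17.7 and 13.5 CPM in gpc4 mutants and between 49.4 and 78.8 CPM in the other 7 embryos. Those of dact2 stayed within the range of the other embryos, from 43.9 to 53.3 CPM in dact1/2 mutants against 42.7 to 87.9 CPM elsewhere. The libraries shared 29 cell barcodes, with at most 3 between any pair. Expression is given per molecule. A 3′ library counts a transcript once whatever its length, so levels of different genes can be set side by side without a length correction.

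A large part of the mRNA counted in these cells came from the 82 genes. The share of UMIs that fell on them was 30.8, 29.0 and 30.2% in dact1/2 mutant replicates 1, 2 and 3. It was 28.9, 28.8 and 29.3% in gpc4 mutants, and 21.6, 29.3, 29.4 and 29.2% in wildtype replicates 1 to 4. Wildtype replicate 1 thus stood below all other embryos, while the other 9 lay between 28.8 and 30.8%. Small subunit genes held 12.4 to 13.4% and large subunit genes 16.4 to 17.4% of UMIs in those 9 embryos, against 9.37% and 12.3% in wildtype replicate 1.

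**Figure D1:**
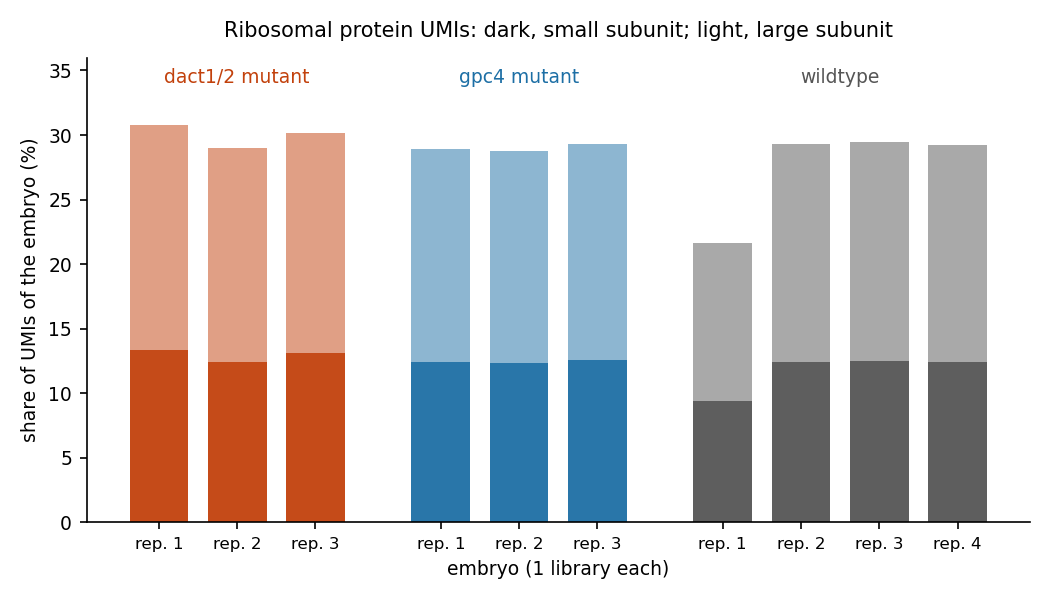
Share of each embryo's UMIs (percent, y axis from 0) that fell on small subunit and large subunit genes, with 1 bar per embryo, dact1/2 mutants first, then gpc4 mutants, then wildtype. The bars of 9 embryos reach between 28.8 and 30.8%, and that of wildtype replicate 1 reaches 21.6%.

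Because wildtype replicate 1 bears on every comparison with wildtype, it is described before them. Its share was the lowest of the 10 embryos in all 15 cell classes measured, with differences of -8.85 to -5.32 percentage points from the mean of the other wildtype embryos (median -7.37). The gap was spread over the genes. Of the 80 with a mean of at least 20 CPM, 76 were lower in wildtype replicate 1 than in each of wildtype replicates 2, 3 and 4. In all, 72 were lower than in all 9 other embryos. Of all 4981 genes with at least that mean, 32.7% and 19.2% were. The median log2 ratio of replicate 1 to the mean of replicates 2, 3 and 4 was -0.39 for the ribosomal protein genes, and 0.13 for the 4901 other genes with a mean of at least 20 CPM. The ratio was -0.96 for rpl24, a large subunit protein at the contact with the small subunit, and -0.74 for rpl22. It was 0.64 for rpl7l1, 0.66 for the second rpl37 row and 0.48 for rpl26, and near 0 for rps27l (-0.04) and rps19bp1 (-0.03). Thus the genes that did not share the deficit included both symbols that name no ribosome subunit. Its cells were deeply sequenced, with a median of 10968 UMIs per cell, against 11027 in wildtype replicate 4, whose share was 29.2%, and 4221 to 8461 in the other 8 embryos, and the part of depth was not tested.

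Other gene groups differed in wildtype replicate 1 as well. Stress response genes (immediate early and heat shock genes such as fosab and hspb1) took 0.780% of its UMIs, 1.90 times the mean of the other wildtype embryos, and ribosome biogenesis factors (nucleolar proteins that process ribosomal RNA) took 2.03%, 1.39 times that mean. Translation factors and other mRNAs with a TOP motif were at 0.973 times that mean. The summed markers of tail bud cells stood at 1289 CPM in replicate 1 and between 496 and 654 CPM in the other wildtype embryos, and those of the hatching gland at 663 CPM against 1422 to 2099 CPM. Their part in the low ribosomal protein share was not tested. Most comparisons with wildtype are therefore given with all 4 wildtype embryos and with replicates 2, 3 and 4. Some are given with only 1 of these sets.

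Among themselves the genes were highly and rather evenly expressed. The median gene stood at 3699 CPM, 75 of 82 were above 1000 CPM, and the 10 most abundant held only 20.4% of the set's UMIs. The most abundant was rplp1, at 7779 ± 972 CPM (SD over 10 embryos), followed by rpl23 (6238 CPM), rpl39 (5775 CPM), rplp0 (5656 CPM) and rps7 (5584 CPM). The acidic proteins encoded by rplp0, rplp1 and rplp2 form the stalk of the large subunit that recruits elongation factors, and rpl39 encodes a very small protein that lines the exit tunnel of the growing peptide. Of these stalk genes rplp2 stood lower, at 1117 ± 193 CPM. The similarly named rplp2l, which fell outside the rule, stood at 5537 CPM and is not part of that value.

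At the low end 6 genes were under 500 CPM. They were rps8b (0.395 CPM, 52 UMIs in all cells), the second rpl37 row (18.2 CPM), rpl26 (61.8 CPM), rps27l (130 CPM), rps19bp1 (134 CPM) and rpl7l1 (259 CPM). For 5 of them another row of the table carries the bulk of the messages, or the protein is not a subunit, as above. rpl26 differs, because it encodes a protein at the exit of the peptide tunnel and no other row with that symbol was present. Reads of near-identical copies could have been lost or moved between rows in the counting, so the levels of rpl26 and of the paralogs below are uncertain to that extent.

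Several proteins are encoded by pairs of genes. rpl22l1 supplied 28.7 ± 3.34% (SD, n = 10) of the summed rpl22 and rpl22l1 messages. The pair is of interest in early embryos because in zebrafish both proteins act on the splicing of smad2 during gastrulation, with opposite effects. The rpl22l1 share was 33.7, 26.0 and 28.4% in dact1/2 mutants, 26.6, 25.3 and 24.8% in gpc4 mutants and 34.02, 31.1, 29.9 and 27.5% in wildtype. All 3 gpc4 mutants were thus below all 4 wildtype embryos, while the dact1/2 mutants spanned most of the range. rpl5b supplied 43.6 ± 1.31% of the summed rpl5a and rpl5b messages, so that both copies of the 5S RNA carrier were in use in every embryo. rps27.2 supplied 29.0 ± 1.96% beside rps27.1, rps26l 63.4 ± 2.39% beside rps26, and rps8b no more than 0.0170% beside rps8a in any embryo. Next to rps27.1, the share of rps27l was 3.47 ± 0.812%. Next to rpl7, that of rpl7l1 was 6.33 ± 1.28%, with 9.78% in wildtype replicate 1.

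Across cell types the set varied within a narrow range. Cells were grouped by clustering in which the ribosomal protein genes were left out, so that the classes do not rest on them. A class was named, with the ending "-like", after marker genes such as meox1 and tcf15 for somites or gfi1aa and gata1a for blood. Of 18 clusters 15 held at least 10 cells of each embryo. The share was highest in somite-like cells, at 31.5 ± 2.91% (mean and SD over 10 embryos), and second in presomitic mesoderm-like cells at 30.2%. Neural crest-like (29.4%), neural-like (29.4%), neural plate/spinal cord-like (29.0%), periderm-like (28.9%), epidermis-like (28.7%) and hematopoietic-like cells (28.4%) followed. Adaxial-like (27.8%), vasculogenic/myeloid-like (27.8%), tail bud-like (27.7%) and heart field-like cells (27.16%) came next. Notochord-like cells (26.6%), a cluster led by foxl2a (26.5%) and a cluster led by mcama (25.1 ± 2.44%) were lowest of the 15. Among the clusters left out, hatching gland-like cells (359 cells) had a pooled share of 24.7%, with 18.7 to 29.8% by embryo. Pronephros-like cells (225 cells) had a pooled share of 28.2%, and germ cell-like cells are described below.

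Much of the spread over embryos within a class came from wildtype replicate 1: without it the somite-like share was 32.4 ± 0.815% and that of the mcama cluster 25.9 ± 0.649%. Set against its own embryo, the somite-like share was higher by 2.86 ± 0.698 percentage points and was above it in 10 of 10 embryos, and the mcama cluster was at -3.53 ± 0.411 percentage points and above it in 0 of 10. The difference between the top and the bottom class was 6.38 ± 0.888 percentage points and lay between 5.12 and 7.69 in every embryo. Most neighbours in the order differed by less than the SD of their difference over embryos, a measure of spread and not a test. Presomitic mesoderm-like cells, for example, exceeded neural crest-like cells by 0.758 ± 0.775 percentage points, in 9 of 10 embryos. In only 3 of 14 neighbouring pairs did the mean difference within embryos exceed its SD: somite-like over presomitic mesoderm-like cells (1.31 ± 0.710 percentage points, 10 of 10 embryos), tail bud-like over heart field-like cells (0.570 ± 0.545, 8 of 10) and the foxl2a cluster over the mcama cluster (1.37 ± 0.461, 10 of 10). Over the 15 classes the mean share had a Pearson correlation of 0.506 with the median number of UMIs per cell, points that share the same 10 libraries, so depth moves with the order and its part was not tested.

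**Figure D2:**
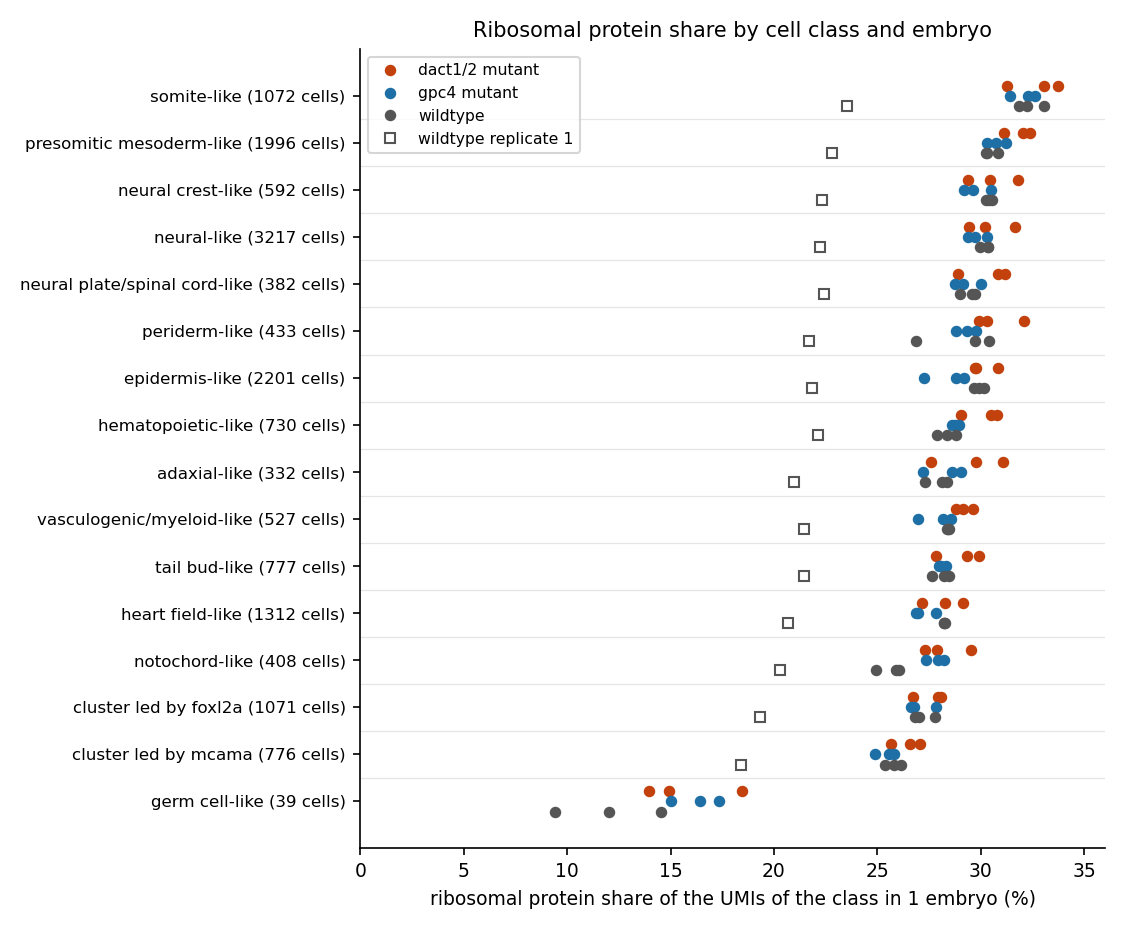
Ribosomal protein share (percent of UMIs) in each cell class, ordered by mean over the classes used, with 1 point per embryo coloured by genotype and wildtype replicate 1 as an open square. Somite-like cells are at the top (31.5%) and the mcama cluster at the bottom (25.1%) of the 15 classes used. Wildtype replicate 1 is the lowest point of each of the 15, and the few germ cell-like cells lie apart between 9.43 and 18.5%. Hatching gland-like and pronephros-like cells are not drawn.

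Single genes followed the set closely. In 69 of 82 genes the mean level was highest in somite-like cells and in 7 in presomitic mesoderm-like cells, and in 60 it was lowest in the mcama cluster. The SD of the log2 level over the 15 classes had a median of 0.09 among the 80 genes of at least 20 CPM. It was 0.33 among the 4901 other genes of at least 20 CPM. The others shared only that minimum, while the median gene of the set stood at 3699 CPM, and the part of level was not tested. Among the steadiest were rpl39, rps3a, rps26 and rps15, each with an SD of 0.06. They encode proteins of both subunits, from the peptide tunnel (rpl39) to the exit of the mRNA channel (rps26).

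The exceptions were the genes at the edge of the set. The SD over classes was 0.29 for rpl7l1, 0.23 for rps27l and 0.21 for rps19bp1, followed by 0.13 for each of the stalk genes rplp1 and rplp0. rpl7l1 ran between 352 CPM in hematopoietic-like cells and 153 CPM in notochord-like cells, a ratio of 2.29. rps27l, a paralog of rps27 that is a p53 target in human cells, was at 183 ± 78.3 CPM in hematopoietic-like and 96.7 ± 41.5 CPM in notochord-like cells, and rps19bp1 at 181 and 100 CPM, ratios of 1.89 and 1.80. The second rpl37 row was the only other one that peaked in hematopoietic-like cells. The ribosome biogenesis factors, a separate list of 56 genes found, had the same extremes, with 2.16% of UMIs in hematopoietic-like and 0.929% in notochord-like cells. Of the true subunits rpsa, whose product also binds laminin outside the cell, alone peaked in neural-like cells (3574 CPM, against 2671 CPM in its lowest class).

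The genes outside the rule whose level over the 15 classes most resembled the summed set included ribosomal proteins under other symbols. Of 2528 genes of at least 50 CPM, the closest included RPL37A (Pearson correlation 0.981), rplp2l (0.980), faua (0.964) and si:dkey-151g10.6 (0.929). The human counterpart of faua encodes a ribosomal protein fused to a ubiquitin-like protein. si:dkey-151g10.6 stood at 13264 CPM, above every gene of the set, and the files attach no name or function to it. The initiation factor subunits eif3ha (0.845) and eif2s1b (0.822), CDPF1 (0.832) and rack1 (0.818), a scaffold on the small subunit, were also among the closest 10. All these are descriptions over the same 15 classes and 10 embryos.

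The lists of related genes ranged widely. The summed share of translation factors and other TOP mRNAs (29 genes found) had a correlation of 0.769 with that of the set over classes, ribosome biogenesis factors 0.554, and mitochondrial ribosomal proteins (74 genes) 0.545. The correlation was 0.282 for p53 targets, 0.10 for the Myc family, 0.03 for stress genes and -0.31 for the genes of the mitochondrial genome.

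Germ cell-like cells had a far lower ribosomal protein share than the rest of the embryo. They were too few for the comparisons above, with 39 cells in 9 embryos and none in wildtype replicate 1, with a median of 4264 UMIs per cell, and they were marked by nanos3, ddx4, dnd1, ca15b and tdrd7a. Pooled over 226223 UMIs, their share was 13.7% (exact binomial 95% interval 13.6 to 13.9%, which covers counting error only). It was 13.96, 14.9 and 18.5% in dact1/2 mutants, 16.4, 17.4 and 15.01% in gpc4 mutants and 12.0, 14.5 and 9.43% in wildtype replicates 2, 3 and 4. All 9 values lay below the share in the other cells of the same embryo, which ran from 28.8 to 30.8%. The dact1/2 mutants overlapped the wildtype embryos, the gpc4 mutants lay above all 3 of them, and each value rests on 2 to 8 cells.

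Nearly all genes took part. Relative to the other cells of the same 9 embryos, 77 of 80 genes were lower in germ cell-like cells, with a median ratio of 0.478, whereas the 4874 other genes of at least 20 CPM had a median ratio of 1.27. Stalk genes were among the lowest (rplp1 at 2374 against 8104 CPM, ratio 0.293, and rplp2 at a ratio of 0.341), as was rpl29 (0.316). The 3 genes that were higher were rpl7l1 (508 against 247 CPM, ratio 2.06), rps27l (239 against 132 CPM, 1.80) and rps19bp1 (164 against 132 CPM, 1.24). They are the same 3 genes that departed most from the set across the other classes. For rps19bp1, with 37 UMIs, the 95% interval was 115 to 225 CPM (counting error only). It held the 132 CPM of the other cells, so a higher level of rps19bp1 was not shown. The ratios to other cells were looked at after the values were seen and are given without a test, since the cells were grouped on other genes of the same libraries.

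The comparison of genotypes asks whether the loss of dact1 and dact2, or of gpc4, altered the expression of the translation machinery. No test of the total share passed. The share averaged 29.98 ± 0.915% in dact1/2 mutants (SD, n = 3) and 27.4 ± 3.84% in wildtype (n = 4), a difference of 2.58 percentage points (two-sided exact permutation p = 0.343). With wildtype replicates 2, 3 and 4, at 29.3 ± 0.109%, the difference was 0.658 percentage points (exact permutation p = 0.4). gpc4 mutants averaged 29.0 ± 0.285%, which was 1.60 percentage points above the 4 wildtype embryos (exact permutation p = 0.971) and -0.323 points from replicates 2, 3 and 4 (exact permutation p = 0.2), so its sign turned with 1 embryo. dact1/2 mutants exceeded gpc4 mutants by 0.980 percentage points (exact permutation p = 0.2). Embryos of these mutants that share a replicate number had positively correlated deviations, and the pairing by number was chosen from these same data. Within numbers 1, 2 and 3 the difference was 1.90, 0.193 and 0.846 percentage points, positive in 3 of 3 pairs (exact sign-flip permutation p = 0.25, the smallest that 3 pairs allow). The smallest p these designs allow is 0.0286 for 3 against 4 embryos and 0.1 for 3 against 3, and after Benjamini-Hochberg adjustment over 5 such tests of the share and the subunit ratio no p was below 0.5. Summed adaxial muscle markers were at 784 to 1499 CPM in dact1/2 mutants and 856 to 1787 CPM in gpc4 mutants, against 378 to 662 CPM in wildtype. With each class given equal weight, the differences from the 4 wildtype embryos were 2.73 and 1.74 percentage points.

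The balance of the subunits was steady. The log2 ratio of large to small subunit UMIs was 0.38, 0.42 and 0.38 in dact1/2 mutants, 0.41 in each gpc4 mutant and 0.39, 0.44, 0.44 and 0.44 in wildtype. Both mutants lay below wildtype replicates 2, 3 and 4 without overlap, by -0.04 and -0.03, with an exact permutation p of 0.1 for each, the smallest possible for 3 against 3. With all 4 wildtype embryos the groups overlapped (dact1/2 mutants -0.03, exact permutation p = 0.171, and gpc4 mutants -0.01, exact permutation p = 0.4).

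Among the classes the largest difference from wildtype was that of the notochord in both mutants. Its share was 29.54, 27.32 and 27.87% in dact1/2 mutants, 27.96, 28.25 and 27.36% in gpc4 mutants and 20.32, 25.91, 26.06 and 24.94% in wildtype. All 6 mutants were above all 4 wildtype embryos. The difference from the 4 wildtype embryos was 3.94 percentage points for dact1/2 mutants (exact permutation p = 0.0571) and 3.55 for gpc4 mutants (exact permutation p = 0.0857), and from replicates 2, 3 and 4 it was 2.61 and 2.22 percentage points, each at the floor of p = 0.1 (exact permutation). Over the 15 classes and both mutants (30 exact permutation tests) no class passed an adjusted p of 0.05, none had an unadjusted p below 0.05, and the smallest adjusted p was 0.857 with 4 and 0.429 with 3 wildtype embryos. The notochord was picked out after these values were seen, and the same wildtype embryos enter both comparisons.

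The notochord difference ran through many genes. These genes make up the share by which the notochord was picked, in the same embryos. The counts below therefore describe that difference and give it no further support. Of 80 genes of at least 20 CPM, 33 were higher in every dact1/2 mutant than in every wildtype embryo, and 2 lower. Of all 5200 genes with at least that mean, 2.71% and 5.35% did so. In gpc4 mutants 27 were higher and 0 lower, where 3.52% and 5.58% of all genes did so. Against replicates 2, 3 and 4 the counts of higher genes were 34 and 28, beside 8.5% and 10.5% of all genes, and 4 and 0 were lower, beside 11.3% and 11.6%. The median log2 ratio to those 3 embryos (1 CPM added) in dact1/2 mutants was 0.18 for the set and -0.05 for the other 5120 genes, and that in gpc4 mutants 0.13 for the set and -0.01 for the others. The values rest on 27 to 68 cells an embryo. The 12 notochord markers moved in the other direction among replicates 2, 3 and 4: their sum in these cells was 8598, 10537 and 8704 CPM in dact1/2 mutants, 8157, 6269 and 9727 CPM in gpc4 mutants and 6612, 13237, 14077 and 20497 CPM in wildtype replicates 1 to 4. Their part in the lower share of wildtype was not tested.

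In gpc4 mutants the sign of the difference turned in many other classes without wildtype replicate 1. With all 4 wildtype embryos both mutants were higher in 15 of 15 classes. With replicates 2, 3 and 4, dact1/2 mutants were higher in 14 of 15 classes (median 0.754 percentage points) and gpc4 mutants in 6 of 15 (median -0.142). In that comparison the groups did not overlap for dact1/2 mutants in hematopoietic-like (1.79 percentage points), presomitic mesoderm-like (1.40) and vasculogenic/myeloid-like cells (0.754), and for gpc4 mutants in epidermis-like (-1.51) and heart field-like cells (-1.0004). Each of these reached the floor of p = 0.1 (exact permutation) and none passed adjustment.

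Gene by gene, counts were summed per embryo and tested with the quasi-likelihood test of edgeR, which adjusts over all genes tested (Benjamini-Hochberg). Calls needed an adjusted p below 0.1 together with a log2 fold change beyond 0.58 in size, after the thresholds of the study's methods. 81 of the 82 genes passed the filter on low counts, rps8b being left out. In whole dact1/2 mutants against the 4 wildtype embryos 0 of 81 were called, where 0.0415% of the 14461 genes tested were. At an unadjusted p below 0.05 there were 19, of which 17 were higher and 2 lower, beside 8.08% of all genes, and DESeq2 called 1 (rpl26). The median log2 fold change was 0.25 for the set and -0.03 for all genes, and 70 of 81 were positive. Against replicates 2, 3 and 4 it was 0.16 and -0.02, with 69 positive and 2 genes called, rpl26 and rpl38, where 2.21% of 14141 genes were called. That count of 2 of 81 was close to the share over all genes. Scaling by library totals alone lowered the median of the set to 0.15 with 4 and 0.06 with 3 wildtype embryos, and that of all genes to -0.12 with 4.

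In terms of overlap, 11 of 80 genes were higher in every dact1/2 mutant than in all 4 wildtype embryos, where 2.57% of 4981 genes were, and the count was again 11 against replicates 2, 3 and 4, where 8.27% were. They were rps14, rps15a, rps19, rpl32, rps2, rpl28, rpl12, rps27.1, rps15, rps16 and rps27l, named after their values were seen. rps19, the gene most often mutated in human Diamond-Blackfan anaemia, was at 5809, 5743 and 5957 CPM in dact1/2 mutants, 5465, 5498 and 5528 CPM in gpc4 mutants and 3592, 5221, 5391 and 5240 CPM in wildtype. All 6 mutants were above all wildtype embryos, by a log2 fold change of 0.36 (SE 0.15) in dact1/2 mutants (adjusted p = 0.606 by edgeR), and of 0.25 (SE 0.07, adjusted p = 0.137 by edgeR) against replicates 2, 3 and 4. rps14, the haploinsufficient gene of the human 5q- syndrome, was at 6367, 5800 and 6005 CPM in dact1/2 mutants, 5723, 5664 and 5425 CPM in gpc4 mutants and 4077, 5332, 5492 and 5532 CPM in wildtype. Its log2 fold change in dact1/2 mutants was 0.34 (SE 0.13, adjusted p = 0.581 by edgeR), so neither gene passed the test.

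The gene with the largest difference was rpl26. It was at 26.7, 14.6 and 11.1 CPM in dact1/2 mutants, 77.4, 17.2 and 128 CPM in gpc4 mutants and 109, 42.7, 137 and 53.6 CPM in wildtype. All dact1/2 mutants were below all wildtype embryos, but gpc4 mutant replicate 2 was within the range of the dact1/2 mutants. Embryos of 1 genotype also differed among themselves, from 17.2 to 128 CPM in gpc4 mutants. Its highest and lowest embryo other than wildtype replicate 1, of different genotypes, stood 12.3-fold apart. Its highest and lowest class mean stood 1.31-fold apart, but these are means over all embryos and so an unlike measure. The log2 fold change in dact1/2 mutants was -2.20 (SE 0.48, adjusted p = 0.363 by edgeR) with 4 wildtype embryos and -2.04 (SE 0.45, adjusted p = 0.0741) with replicates 2, 3 and 4. rpl26 fell in the 3 lineages as well against replicates 2, 3 and 4, with a log2 fold change of -1.83 in lateral plate mesoderm (edgeR, adjusted p = 0.0276), -2.02 in paraxial mesoderm (0.0394) and -2.01 in ectoderm (0.0366). In gpc4 mutants its log2 fold change was -0.14 (SE 0.65, adjusted p = 0.973 by edgeR).

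rpl38 came next. In the mouse its product is needed for the translation of several Hox mRNAs and its loss alters the axial skeleton. It was at 1922, 1867 and 1828 CPM in dact1/2 mutants, 2341, 2647 and 3083 CPM in gpc4 mutants and 2250, 3530, 2924 and 2809 CPM in wildtype. The 3 dact1/2 mutants were the 3 lowest of the 10 embryos, and the gpc4 mutants lay within the wildtype range. The log2 fold change in dact1/2 mutants was -0.53 (SE 0.15, adjusted p = 0.437 by edgeR) with 4 wildtype embryos. Against replicates 2, 3 and 4 it fell by 0.62 (SE 0.10, adjusted p = 0.0240 by edgeR) in the whole embryo. There its log2 fold change was -0.65 in lateral plate mesoderm (edgeR, adjusted p = 0.0067), -0.67 in paraxial mesoderm (0.0283) and -0.68 in ectoderm (0.0050), so it fell in all 3.

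Lower values in dact1/2 mutants than in wildtype replicates 2, 3 and 4 were also seen for genes that did not pass both thresholds. rps29, whose loss in zebrafish affects blood, was at 3010, 3522 and 3021 CPM in dact1/2 mutants, 3590, 4498 and 4788 CPM in gpc4 mutants and 2902, 5239, 4455 and 4113 CPM in wildtype. The dact1/2 mutants were below wildtype replicates 2, 3 and 4 and above replicate 1. Its log2 fold change against the 3 was -0.43 (SE 0.10, adjusted p = 0.0820 by edgeR), short of the fold minimum. In the lineages, against the 3, rps29 had -0.50 in ectoderm (adjusted p = 0.0346 by edgeR) and -0.45 in lateral plate mesoderm (0.0417), again short of it. rpl29 was at 2152, 2659 and 2278 CPM in dact1/2 mutants, 2369, 3244 and 3057 CPM in gpc4 mutants and 2070, 3533, 3045 and 2849 CPM in wildtype. In all, 11 of 80 genes were lower in every dact1/2 mutant than in replicates 2, 3 and 4 (rpl39, rpl37, rps29, rpl23a, rpl29, rpl38, rpl34, rps6, rps18, rpl4 and rpl26, named after their values were seen), beside 16.4% of all genes. Against all 4 wildtype embryos only rpl38 and rpl26 were lower throughout, beside 10% of all genes. In neither comparison was the set lower more often than genes in general.

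**Figure D3:**
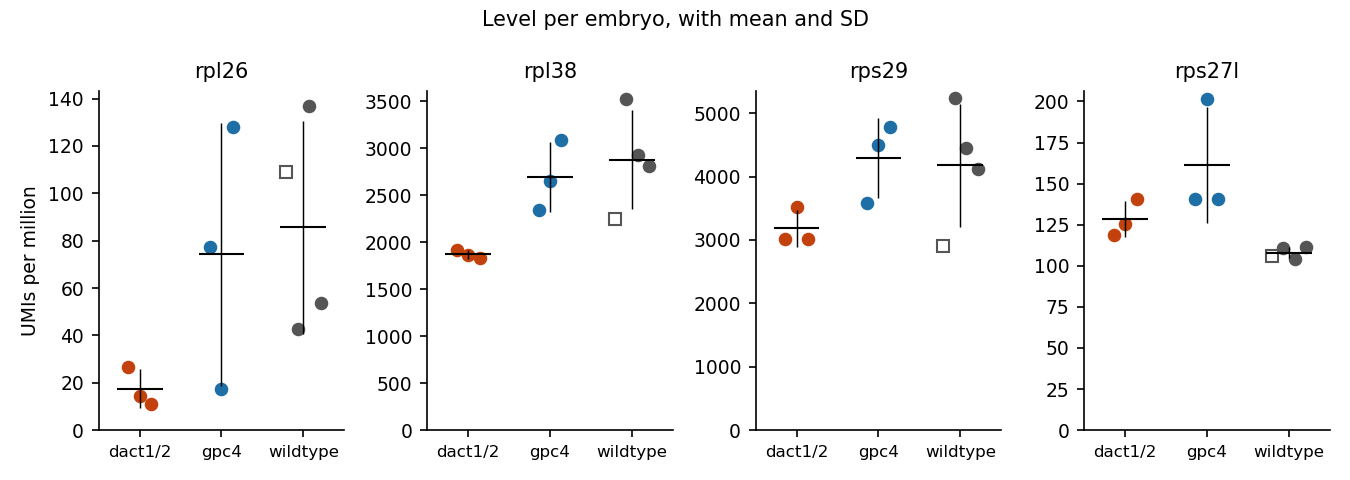
Level (CPM) of rpl26, rpl38, rps29 and rps27l in each embryo, with 1 point per embryo, the mean as a horizontal line, the SD as a vertical line and wildtype replicate 1 as an open square, dact1/2 mutants left, gpc4 mutants in the middle and wildtype right. The dact1/2 mutants are the lowest 3 embryos for rpl38 (1828 to 1922 CPM), and all 6 mutants exceed all 4 wildtype embryos for rps27l (119 to 202 against 104 to 111 CPM).

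In gpc4 mutants the set was closer to wildtype. Of 81 genes 0 were called against the 4 wildtype embryos, where 0.119% of 14295 genes were, and 2 had an unadjusted p below 0.05, both higher, rps27l and rps26, beside 8.64% of all genes. DESeq2 called rps27l. The median log2 fold change was 0.12 for the set and -0.02 for all genes with 4 wildtype embryos, and 0.04 and -0.01 with replicates 2, 3 and 4. Scaled by library totals alone it was 0.07 with 4 and -0.02 with 3 wildtype embryos, so its sign turned. Against replicates 2, 3 and 4 rps27l was called, where 2.41% of 14137 genes were, so the calls in the set did not exceed that share. Of 80 genes, 3 were higher in every gpc4 mutant than in all 4 wildtype embryos (rps19, rps26 and rps27l), beside 3.29% of all genes, and 0 were lower, beside 11.2%. Against replicates 2, 3 and 4, 3 were higher and 13 lower, beside 9.76% and 16.7% of all genes. All these counts were near or below the shares over all genes.

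rps27l was at 119, 125 and 141 CPM in dact1/2 mutants, 141, 202 and 141 CPM in gpc4 mutants and 106, 111, 104 and 111 CPM in wildtype. It was higher in all 6 mutants than in all 4 wildtype embryos, and highest in gpc4 mutant replicate 2. The log2 fold change in gpc4 mutants was 0.62 (SE 0.13, adjusted p = 0.239 by edgeR) with 4 wildtype embryos and 0.62 (SE 0.13, adjusted p = 0.0615) with replicates 2, 3 and 4. Against the 3 it also rose in lateral plate mesoderm, by 0.77 (SE 0.18, adjusted p = 0.0624 by edgeR), and in paraxial mesoderm, by 0.94 (SE 0.22, adjusted p = 0.0857), and in ectoderm its log2 fold change was 0.51 (SE 0.11, adjusted p = 0.0569), under the fold minimum. In dact1/2 mutants it rose in paraxial mesoderm, by 0.62 (SE 0.13, adjusted p = 0.0650 by edgeR) against the 3. Its log2 fold change was 0.27 in lateral plate mesoderm (edgeR, adjusted p = 0.372) and 0.19 in ectoderm (adjusted p = 0.401), which were not called, and the difference between lineages was not tested. It was 0.34 (SE 0.10, adjusted p = 0.471 by edgeR) in the whole embryo against the 4. Whether the 2 mutants differed in it was tested directly, with a log2 fold change of -0.28 in dact1/2 over gpc4 mutants that was not called. rps26, at the exit of the mRNA channel, was at 1411, 1474 and 1580 CPM in dact1/2 mutants, 1490, 1784 and 1898 CPM in gpc4 mutants and 1207, 1441, 1258 and 1366 CPM in wildtype. Its log2 fold change in gpc4 mutants was 0.44 (SE 0.12, adjusted p = 0.384 by edgeR).

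In the lineages no gene of the set was called in either mutant against the 4 wildtype embryos. The share of all genes called was 0.0432% and 0.0642% in lateral plate mesoderm for dact1/2 and gpc4 mutants, 0.0212% and 0.076% in paraxial mesoderm and 0.0948% and 0.142% in ectoderm. Unadjusted p values below 0.05 numbered 13 and 2 in lateral plate mesoderm, 7 and 2 in paraxial mesoderm and 5 and 2 in ectoderm. Beside them stood 5.55% and 6.72% of all genes in lateral plate mesoderm, 8.74% and 9.06% in paraxial mesoderm and 7% and 7.99% in ectoderm, so that the counts of 7, 5 and 2 of 81 did not exceed the background. DESeq2 called rpl26 in each lineage of dact1/2 mutants and rps27l in paraxial mesoderm of gpc4 mutants. With replicates 2, 3 and 4 the calls of edgeR were those given above for rpl26, rpl38 and rps27l, beside 1.57% and 1.8% of all genes in lateral plate mesoderm, 1.15% and 1.87% in paraxial mesoderm and 1.84% and 2.38% in ectoderm. The lineages are parts of the same embryos, so these calls are not independent of those in the whole embryo. Without the fold minimum, calls against replicates 2, 3 and 4 in dact1/2 mutants numbered 3 in the whole embryo (beside 3.04% of all genes), 4 in lateral plate mesoderm (2.02%), 3 in paraxial mesoderm (1.21%) and 4 in ectoderm (2.24%). rps29 joined in the whole embryo, and rps29 and rpl29 in ectoderm and lateral plate mesoderm. In gpc4 mutants they numbered 1, 1, 1 and 2 in the same order, beside 3.22%, 2.1%, 2.09% and 3.06% of all genes, with rps26 and rps27l in ectoderm and rps27l elsewhere. The median log2 fold change of the set with 4 wildtype embryos was 0.21, 0.25 and 0.20 in these lineages of dact1/2 mutants and 0.10, 0.14 and 0.11 in those of gpc4 mutants.

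The 2 mutants were also compared with each other, which needs no wildtype embryo. Of 81 genes 0 were called, where 2.04% of 14143 genes were, 6 had an unadjusted p below 0.05, 3 in each direction, beside 14.7% of all genes, and DESeq2 called 0. The median log2 fold change of dact1/2 over gpc4 mutants was 0.12 for the set and -0.01 for all genes, with 63 of 81 positive. rpl38 had -0.48 (SE 0.12, adjusted p = 0.118 by edgeR), rpl26 -2.05 (SE 0.63, adjusted p = 0.174) and rps29 -0.39 (SE 0.13, adjusted p = 0.197). On the other side were rpl22l1, at 0.34 (SE 0.11, adjusted p = 0.207 by edgeR), rpl12, part of the base of the stalk, at 0.26 (SE 0.10, adjusted p = 0.258), rpl18 at 0.26, rpl10a at 0.28 and rpl15 at 0.22. rpl22l1 was at 1411, 1108 and 1154 CPM in dact1/2 mutants and at 984, 1017 and 991 CPM in gpc4 mutants, without overlap, against 872, 1285, 1214 and 1070 CPM in wildtype, which spanned both. The pairing of these 2 mutants by replicate number was chosen from these same data, so a fit with that block gives no independent support. With the number as a block 50 of 81 genes had an unadjusted p below 0.05 by edgeR, beside 21% of all genes, while 0 were called.

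The remaining genes with the smallest p showed small differences. In dact1/2 mutants against the 4 wildtype embryos rpl10a had a log2 fold change of 0.38, rps3a of 0.37 and rps2 of 0.32, whose products sit on both subunits, and rpl29 had -0.19 and rps19bp1 -0.11. rpl10a was at 5816, 4557 and 5300 CPM in dact1/2 mutants, 4901, 4133 and 4347 CPM in gpc4 mutants and 3743, 4459, 4599 and 4362 CPM in wildtype, so dact1/2 mutant replicate 2 was within the wildtype range. In gpc4 mutants rpl13a had 0.22 and rps26l 0.32, and the second rpl37 row -0.38, rpl22l1 -0.11, rps19bp1 -0.10, rpl6 -0.06 and rpl4, which lines the peptide tunnel, -0.05. None of these passed an adjusted p of 0.1 by edgeR.

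Several members are known for roles beyond the ribosome. rpl5a, rpl5b and rpl11 encode the proteins that in mammalian cells carry the 5S RNA and bind Mdm2 when assembly fails. rpl11 was at 5995, 4636 and 5389 CPM in dact1/2 mutants, 5437, 4718 and 4954 CPM in gpc4 mutants and 3672, 4582, 4919 and 4718 CPM in wildtype, with overlap between all groups. rpl5a ranged from 1155 to 1368 CPM in the 6 mutants and from 977 to 1256 CPM in wildtype, and rpl5b from 886 to 979 CPM and from 831 to 983 CPM. rps6, the substrate of the S6 kinases, was at 2137, 2044 and 2108 CPM in dact1/2 mutants, 1956, 2022 and 1973 CPM in gpc4 mutants and 1788, 2190, 2205 and 2334 CPM in wildtype, with all 6 mutants between wildtype replicate 1 and the other 3. rpsa, rpl10, which joins the large subunit late in its assembly, and rps27a, made as a fusion with ubiquitin, also overlapped between the groups, and none of them was called in any comparison.

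**Figure D4:**
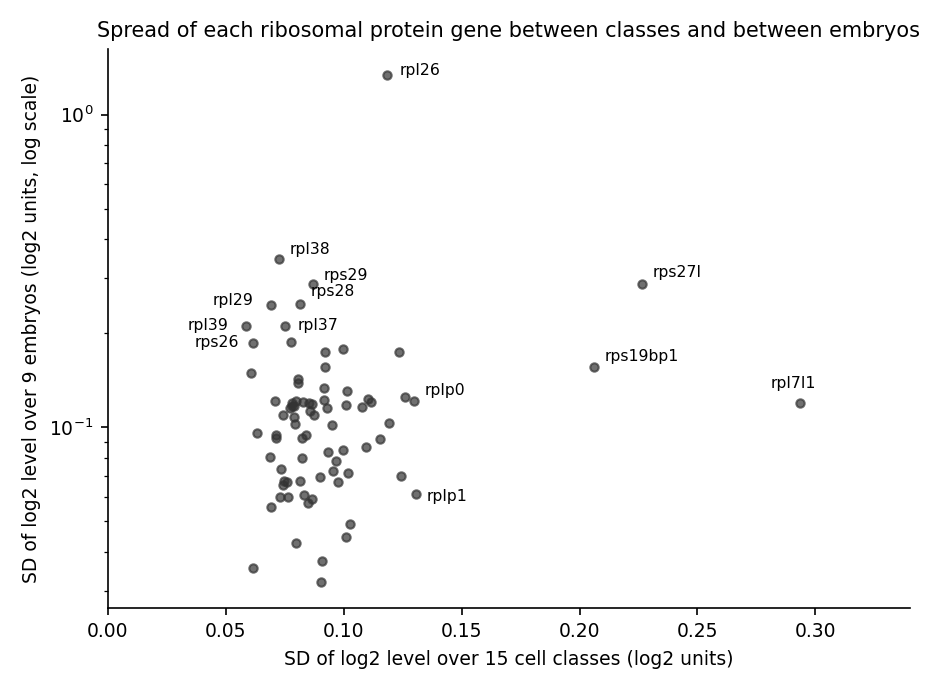
For each of 80 genes, the SD of its log2 level over the 15 cell classes (x axis) against the SD over the 9 embryos other than wildtype replicate 1 (y axis, log scale). The x axis uses class means over all embryos and the y axis single embryos, so the axes are unlike measures. Most genes cluster near 0.1 on both axes, rpl26 stands far up at 1.34 over embryos, rpl38 at 0.35, and rpl7l1, rps27l and rps19bp1 lie to the right at 0.21 to 0.29 over classes.

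The spread over embryos was measured differently from that over cell classes. Among the 80 genes the SD of the log2 level over the 9 embryos without wildtype replicate 1 had a median of 0.11. Among the 4901 others, which were not matched to the set in level, it was 0.15. In 46 of 80 genes it exceeded the SD over classes. That SD used class means over all embryos, whereas single embryos also carry genotype differences. The count therefore does not show whether embryos or classes varied the genes more. The widest genes over these 9 embryos were rpl26 (1.34), rpl38 (0.35), rps27l (0.29), rps29 (0.29), rps28 (0.25), rpl29 (0.25), rpl37 (0.21) and rpl39 (0.21). Among the related lists 0 genes were called against the 4 wildtype embryos in whole mutants of either genotype. Against replicates 2, 3 and 4 the calls of edgeR in dact1/2 mutants were hspb1 (a small heat shock protein, higher, 1 of 16 stress genes) and sesn1 (lower, 1 of 13 p53 targets). In gpc4 mutants they were hspb1 and ccng1 (a cyclin induced by p53), both higher, nop14 (a factor for small subunit assembly, lower, 1 of 56 biogenesis factors) and mrpl20 (higher, 1 of 74 mitochondrial ribosomal proteins). Beside these stood 2.21% of all genes called in dact1/2 mutants and 2.41% in gpc4 mutants. The counts for biogenesis factors and mitochondrial ribosomal proteins did not exceed that background.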

How the data were processed

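Whole-embryo 10x 3′ libraries of 10 embryos were analysed. Per the paper's methods and the submitters' processing notes, the authors aligned reads to GRCz11 with Cell Ranger 6.1.0 and deposited raw UMI counts per gene and droplet. The settings for reads that match several genes are not given in the sources used here. No gene coordinates are given, because the reference table is of another assembly. The ribosomal protein genes and the gene lists were chosen with earlier results of these data known. The other genes whose shares or medians stand beside those of the set were not matched to it in level.

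Droplets with at least 1500 UMIs, at least 750 genes, under 5% mitochondrial UMIs and a log10 genes to log10 UMIs ratio over 80% were kept, after the methods. The paper reports more cells after these criteria than remained here, and the reason was not examined. The droplets left out had a ribosomal protein share of 25.5 to 39.5% per embryo. Doublets were not removed. Cells were clustered with Seurat 5.3.0 and sctransform 0.4.2 (3000 variable genes, 30 ribosomal protein genes among them left out, 40 components, resolution 0.3). Shares are ribosomal protein UMIs over all UMIs, summed per embryo or per embryo and class. The lineages were ectoderm (neural crest-like, neural-like and neural plate/spinal cord-like cells), paraxial mesoderm (adaxial-like, presomitic mesoderm-like and somite-like) and lateral plate mesoderm (pronephros-like, vasculogenic/myeloid-like, hematopoietic-like and heart field-like).

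Shares were compared with two-sided exact permutation tests. There p was the part of all splits whose absolute difference of means was at least that observed. Summed counts were tested with edgeR 4.0.16 (TMM, filterByExpr, quasi-likelihood test, Benjamini-Hochberg), with DESeq2 1.42.0 as an alternative in place of the shrunken estimates of the methods. P-values measure the spread between embryos. Intervals cover counting error only. The SE given with a log2 fold change was derived from the edgeR test, as the size of the change over the square root of the F statistic. The statistics were tested on simulated data. Replicate numbers were taken to pair dact1/2 with gpc4 mutants, because the deviations of same-numbered embryos correlated (0.440, 0.536 and 0.261). Mutants were not taken to pair with wildtype, where same-numbered embryos gave -0.29 to 0.17. The pairing was chosen from these same data, and correlations between differently numbered embryos are not given.

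Named genes were the 5 most and 5 least abundant, the 5 of largest and smallest spread over classes, the 5 of smallest p in each direction per whole-embryo comparison, called genes, paralogs, members of known roles and the 10 genes most like the set; a few of these are not reported here. Tests with wildtype replicates 2, 3 and 4 under other settings were added after seeing the data.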

Additional observations from a re-analysis of the deposited data

Results flagged for a closer look

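In 15 of the 17 sets of wildtype values examined, 1 embryo lay farther from the other wildtype embryos than the 95% limit of Dixon's test for 4 samples, and in all 15 it was wildtype replicate 1. Chance alone passes that limit in about 1 set in 20, and the sets share cells. Its ribosomal protein share was 21.6% in the whole embryo, against 29.2 to 29.4% in the other wildtype embryos, and its log2 ratio of large to small subunit UMIs was 0.39, against 0.44.

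By class the share of wildtype replicate 1 was 21.0% in adaxial-like, 21.8% in epidermis-like, 20.7% in heart field-like, 22.1% in hematopoietic-like, 22.2% in neural-like, 22.3% in neural crest-like and 22.4% in neural plate/spinal cord-like cells. It was 22.8% in presomitic mesoderm-like, 23.5% in somite-like, 21.5% in tail bud-like and 21.5% in vasculogenic/myeloid-like cells, 19.3% in the cluster led by foxl2a and 18.4% in the cluster led by mcama. Of the 80 genes with a mean of at least 20 CPM, taken singly, 28 (35%) passed the limit among the wildtype embryos, each of them in replicate 1. Beside them, 18.4% of all 4981 genes with at least that mean passed it in replicate 1.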

How the results depend on the processing

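The shares and subunit ratios kept their direction under all droplets, medians over cells, equal class weights, mitochondrial UMIs left out, the 5% of cells with most UMIs left out and the 3 most abundant genes left out, with 1 exception: without wildtype replicate 1 the gpc4 share difference was -0.323. Leaving out single embryos gave differences of 0.658 to 3.25 percentage points for dact1/2 mutants, -0.323 to 2.27 for gpc4 mutants and 0.578 to 1.48 between the mutants. The class tests stayed at 0. Where an embryo of the compared groups was left out, no other count was possible, so those settings do not show stability. With a wildtype embryo left out, the smallest p that 3 against 3 embryos allow is 0.1, above the limit set for the adjusted p. With a mutant embryo left out, the smallest possible p is also above that limit.

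Calls of ribosomal protein genes in dact1/2 mutants, 0 at first, came to 1 under DESeq2 in the whole embryo and in each lineage, and to 1 with no filter in each lineage. With wildtype replicates 2, 3 and 4 they came to 2, 2, 3 and 2 (whole embryo, ectoderm, paraxial and lateral plate mesoderm), and to 3, 4, 3 and 4 without the fold minimum. Added to those 3 embryos, library totals gave 2 each (5, 5, 4 and 5 without the minimum), scaling on other genes 2, 2, 3 and 2 (3, 4, 3 and 4) and DESeq2 2, 1, 3 and 1. Leaving out single embryos gave 0 to 2, 0 to 2, 0 to 3 and 0 to 2.

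In gpc4 mutants DESeq2 gave 1 in the whole embryo and 1 in paraxial mesoderm, and no filter 1 in paraxial mesoderm. With replicates 2, 3 and 4 there was 1 in the whole embryo, paraxial and lateral plate mesoderm, under DESeq2 and scaling on other genes too, and library totals gave 0, 0 and 1 (1 in the whole embryo without the minimum). In ectoderm 2 appeared only without the minimum. Single embryos moved the counts from 0 to 1 in these 3 and between the mutants (rpl26, without gpc4 mutant replicate 2).

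All genes called numbered 6 in dact1/2 mutants, 17 in gpc4 mutants and 288 between the mutants, against 151, 194 and 462 under DESeq2 and 312 and 341 with replicates 2, 3 and 4. With the replicate number as a block they were 0, 1 and 503, with 0 ribosomal protein genes each. The first 2 of these counts use numbers that were not taken to pair mutants with wildtype. The number of embryos limits all p-values, and the causes were not tested.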
